A study of Mus musculus with 4 samples.

Results

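Imprinted genes are read from the copy inherited from 1 parent, and 41 of them were followed here in fetal mouse brain after maternal ethanol. They were listed by name, with earlier results of these data known. Each was looked up by its gene symbol in the annotation of the array platform, where 1 probe set per gene was taken. Of the 41 genes, 33 had a probe set assigned to that gene alone, out of 19938 such genes on the array. The other 8 (H19, Mirg, Kcnq1ot1, Snrpn, Ube3a, Zrsr1, Gnas and Peg13) were not analysed here. A gene was kept for comparison when its mean over the arrays reached 7.11 on the log2 scale, the median of all probe set means, which kept 26 of the 33 imprinted genes and 11013 genes in all. The remaining 7 are described apart.

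In germ cells, DNA methylation marks imprinting control regions differently in egg and sperm, and after fertilization the zinc finger protein ZFP57, its partner TRIM28 and the methyltransferase DNMT1 keep the mark in place. Imprinted genes lie in clusters in which paternally and maternally expressed genes are neighbours under 1 control region. Many of them regulate fetal growth, and in the brain several are prominent in the hypothalamus and other ventral regions. Some, such as Igf2, are strongly expressed in the meninges and choroid plexus. Genes were sorted, from general knowledge, into 16 kept paternally expressed genes, 6 kept maternally expressed genes and 4 kept genes whose imprinted copy depends on tissue or transcript (Grb10, Cobl, Blcap and Inpp5f). Total RNA does not tell the parental copies apart, so the arrays give each gene's summed level and not its imprinting.

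The study used C57BL/6J mice. Pregnant dams were gavaged with phosphate-buffered saline (PBS) or with ethanol, at a daily dose of 2.9 g/kg in a 15% (v/v) solution, for 5 days spanning embryonic days 8 to 12, and fetal brains were dissected on embryonic day 18. Forebrain and hippocampus of each treatment make 4 groups. Each group had 1 array, so a difference between 2 arrays has no replicate check and no p-value. The labels do not say whether embryos were pooled, how many litters were used or whether 1 embryo gave both tissues. A litter or processing run that goes with treatment cannot be told apart from ethanol. In whole tissue, fewer cells of a type and less RNA per cell cannot be told apart either.

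The promoters of 4 members are shown as sequence. Nap1l5 was chosen for the largest ethanol differences among the members and Plagl1 for the most negative ethanol minus PBS difference in hippocampus. Mest was chosen because it differed between the tissues by test, and Peg3 because it faces its neighbour Usp29. Each line gives the 250 bases before the RefSeq transcription start (build GRCm38.p6), 5′ to 3′ on the gene's strand, and capitals mark TGCCGC, the hexamer that ZFP57 recognizes when its CpG is methylated, on either strand (GCGGCA is its reverse complement).

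Nap1l5 (chr6:58907127-58907376, minus strand): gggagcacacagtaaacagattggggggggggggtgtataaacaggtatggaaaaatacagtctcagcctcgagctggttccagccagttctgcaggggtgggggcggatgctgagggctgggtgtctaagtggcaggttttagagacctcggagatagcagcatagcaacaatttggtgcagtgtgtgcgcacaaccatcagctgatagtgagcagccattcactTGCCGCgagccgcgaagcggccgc
Mest (chr6:30737800-30738049, plus strand): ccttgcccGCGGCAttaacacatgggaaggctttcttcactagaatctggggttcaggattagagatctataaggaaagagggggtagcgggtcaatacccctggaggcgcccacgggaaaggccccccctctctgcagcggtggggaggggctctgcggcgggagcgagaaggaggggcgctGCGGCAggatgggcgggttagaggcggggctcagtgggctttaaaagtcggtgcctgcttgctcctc
Plagl1 (chr10:13090582-13090831, plus strand): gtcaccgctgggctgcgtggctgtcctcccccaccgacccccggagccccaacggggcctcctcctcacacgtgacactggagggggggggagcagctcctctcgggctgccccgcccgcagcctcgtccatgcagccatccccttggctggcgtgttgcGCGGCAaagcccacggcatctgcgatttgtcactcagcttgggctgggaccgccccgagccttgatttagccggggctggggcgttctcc
Peg3 (chr7:6730420-6730669, minus strand): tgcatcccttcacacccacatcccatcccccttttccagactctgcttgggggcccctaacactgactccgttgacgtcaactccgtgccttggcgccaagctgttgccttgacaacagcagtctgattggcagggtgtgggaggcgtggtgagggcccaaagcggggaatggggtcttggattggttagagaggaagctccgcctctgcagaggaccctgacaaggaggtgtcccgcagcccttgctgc

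The Nap1l5 window holds TGCCGC 1 time, the Mest window 2 times and the Plagl1 window 1 time, while these letters are not in the Peg3 window. Nap1l5 has 10 CpG dinucleotides in the window, Mest 14, Plagl1 19 and Peg3 8, against a median of 6 over all 32851 RefSeq windows of this length. Over all of those windows 8.68% hold the hexamer. For the listed imprinted genes it was in 6 of 55 windows (10.9%), which belong to 5 of 34 genes with a window (Nap1l5, Mest, Plagl1, Meg3 and Zim1). The windows of Peg3 and Usp29 overlap by 163 bases on opposite strands. A match is a description of the sequence and no measure of binding or methylation.

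Before the members, the arrays themselves need description. Array medians lay between 7.11 and 7.13 over all probe sets, and over the genes kept the hippocampus ethanol array read 8.57 and the other arrays 8.66 to 8.68. Markers of hippocampal fields did not set the tissue labelled hippocampus apart: of 14 kept, 0 were called higher there by limma, which called 12 genes of all kinds, and 2 had an unadjusted p below 0.05 in that direction. Their mean level was 8.39 in both PBS arrays, 8.46 in forebrain after ethanol and 8.44 in hippocampus after ethanol. Cortical and other dorsal forebrain markers were present on every array, with mean levels of 9.21 to 9.60. Sex-linked genes were not even between arrays: Uty, a Y-linked gene, read 7.28 and 8.07 in forebrain and 7.97 and 7.62 in hippocampus after PBS and ethanol, and Xist read between 11.10 and 11.48.

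The tissues were compared first, because the arrays of both treatments serve as repeats in that comparison. Many imprinted genes read lower in the tissue labelled hippocampus than in forebrain, and 6 were lower by test: Igf2, Dlk1, Peg10, Nap1l5, Mest and Nnat. All 6 had been sorted into the paternally expressed class, as had 16 of the 26 kept genes. The arrays do not show which copy was read in these tissues. The fit was limma with tissue and treatment as terms, and it called 1.02% of all genes lower and 0.109% higher at a Benjamini-Hochberg adjusted p of 0.05. No kept imprinted gene was called higher, while 24 of 26 had an estimate below 0, as did 61.2% of all genes. The median tissue estimate was -0.23 over the 26 genes and -0.03 over all genes kept. Each gene's own error in this model has 1 residual degree of freedom, the disagreement among these arrays, which may be technical. The model combines it with a variance prior estimated from all genes kept, which carries 6.53 degrees of freedom.

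Igf2, the fetal insulin-like growth factor, read 10.01 in forebrain after PBS, 9.94 in forebrain after ethanol, 9.10 in hippocampus after PBS and 9.31 in hippocampus after ethanol. Both hippocampus arrays lay below both forebrain arrays, and the estimate was -0.77 (SE 0.0834, limma adjusted p = 0.0175, n = 4 arrays). Dlk1, a transmembrane relative of the Notch ligands, read 8.70 and 8.82 in forebrain and 7.96 and 8.21 in hippocampus, in the order PBS then ethanol. The groups again did not overlap (estimate -0.67, SE 0.0826, limma adjusted p = 0.0226). For the called genes such separation uses the same 4 values as the test and is no added support. Peg10, a gene derived from a retrotransposon and known for its role in the placenta, read 9.44 and 9.57 in forebrain and 8.60 and 9.17 in hippocampus. The hippocampus PBS array was the low one, and the estimate was -0.62 (SE 0.107, limma adjusted p = 0.0484).

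Nap1l5, a member of the nucleosome assembly protein family expressed in brain, read 9.56 and 9.89 in forebrain and 8.83 and 9.47 in hippocampus. All forebrain values exceeded the hippocampus values, by a narrow margin between forebrain PBS and hippocampus ethanol (estimate -0.57, SE 0.0894, limma adjusted p = 0.0417). Mest, an enzyme-like protein of mesodermal and neural tissue, read 11.39 and 11.46 in forebrain and 10.96 and 11.15 in hippocampus, without overlap (estimate -0.37, SE 0.0506, limma adjusted p = 0.0345). Nnat, neuronatin, a small membrane protein of neurons, read 12.08 and 12.03 in forebrain and 11.81 and 11.82 in hippocampus. It differed least among the called genes (estimate -0.23, SE 0.0401, limma adjusted p = 0.0472), and its values were the closest within each tissue.

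**Figure D1:**
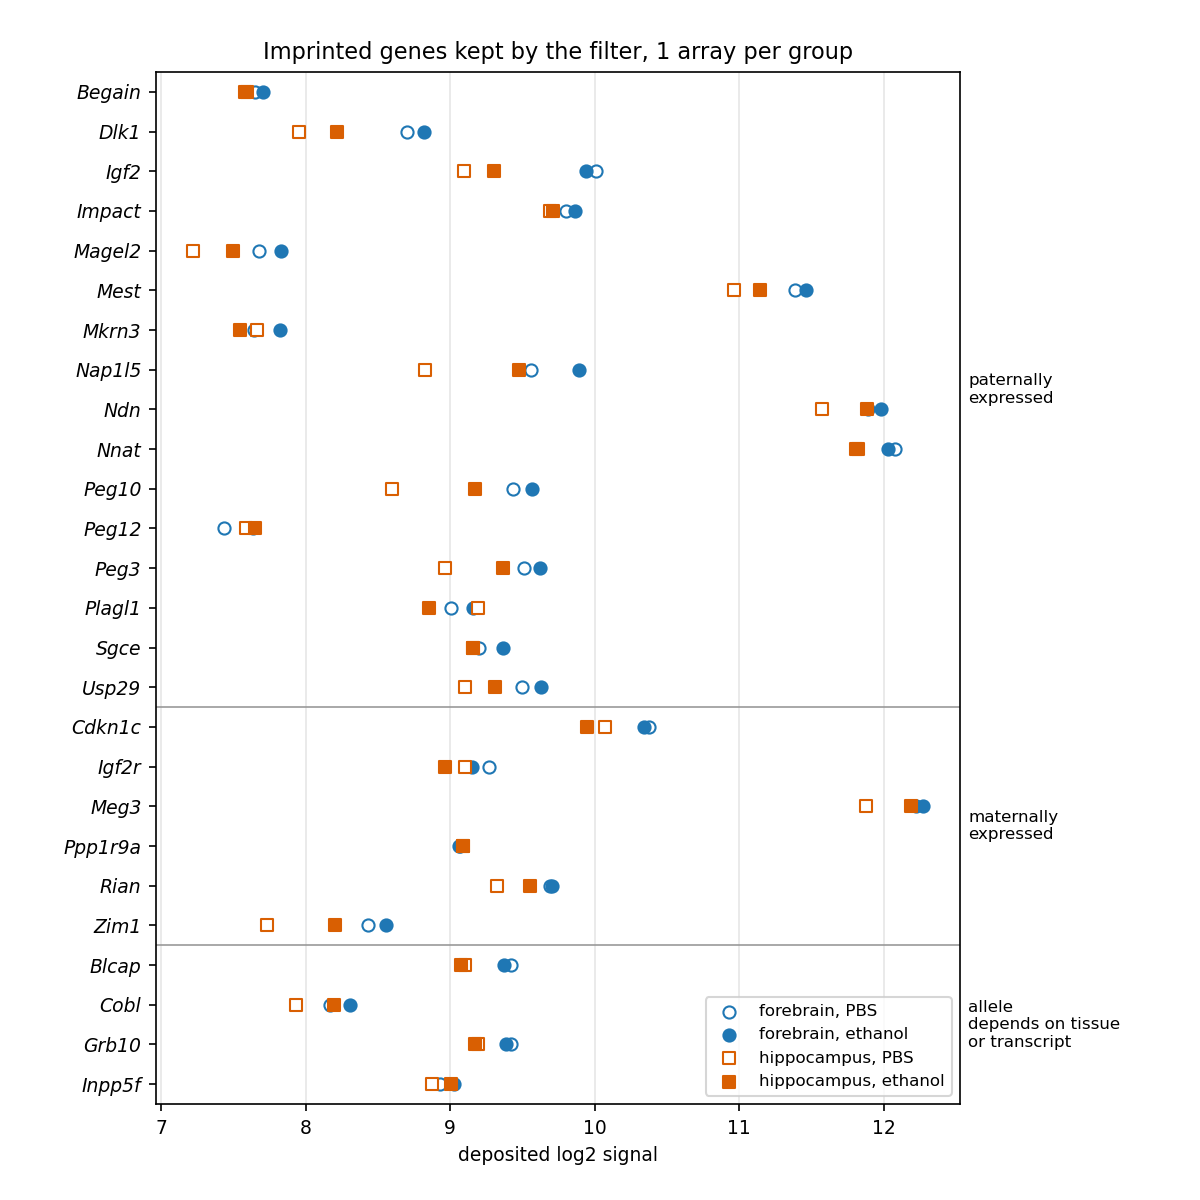
Deposited log2 signal (x axis) of the 26 imprinted genes kept, 1 point per array, with open symbols for PBS, filled symbols for ethanol, circles for forebrain and squares for hippocampus, and genes grouped by the parental copy they are known to be read from. Levels of different genes are read from different probes and are not comparable, and within a row the open square (hippocampus after PBS) is the lowest of the 4 points for 16 genes.

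Calls depended on how the arrays were handled. After median centring of the arrays, and likewise with no intensity trend in the variance prior, the members called were Igf2 and Dlk1. Quantile normalization called 13 members and a stricter expression filter 8. Over all genes limma called 45 lower after centring, 25 with no trend, 346 after quantile normalization and 90 of 5549 under the stricter filter. Without treatment as a term none was called, at a residual spread that then contains the ethanol differences. Leaving out 1 array, with tissue as the only term, leaves 1 array in a tissue, so only medians are described here. The member median was -0.23 without the hippocampus PBS array and -0.30 without the hippocampus ethanol array. It was -0.25 without either forebrain array. The tissue difference was also present within each treatment: 15 of the 26 genes were lower by at least 1.2-fold in hippocampus after PBS, where 6.46% of all genes were, and 12 of 26 after ethanol, where 9.85% were. After either treatment 0 of the 26 were higher by 1.2-fold, against 3.16% of all genes after PBS and 2.15% after ethanol. At 1.5-fold, 5 were lower after PBS (Igf2, Dlk1, Zim1, Peg10 and Nap1l5; 1.19% of all genes) and 2 after ethanol (Igf2 and Dlk1; 0.536%).

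Further imprinted genes had estimates of similar size without passing the adjusted threshold. Zim1, a maternally expressed zinc finger gene, had an estimate of -0.53 (limma adjusted p = 0.0673), Peg3, a paternally expressed zinc finger protein, -0.40 (0.0893), Magel2, a MAGE family gene of hypothalamic neurons, -0.39 (0.0906), Usp29, a ubiquitin protease gene, -0.35 (0.0728), and Cdkn1c, which encodes the cell cycle inhibitor p57, -0.35 (0.0517). At an unadjusted p of 0.05, 17 of the 26 were lower, against 11.9% of all genes, and 0 were higher, against 3.27%. These were 10 of 16 paternally expressed genes, 5 of 6 maternally expressed genes and 2 of 4 with a tissue- or transcript-dependent copy. Only Peg12, a FRAT family gene, and Ppp1r9a, which encodes the actin-binding protein neurabin, had estimates above 0, at 0.09 and 0.02. Begain, a postsynaptic protein gene, Plagl1, a zinc finger transcription factor gene, and Inpp5f, an inositol phosphatase gene had the smallest estimates below 0, at -0.09, -0.06 and -0.04.

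**Figure D2:**
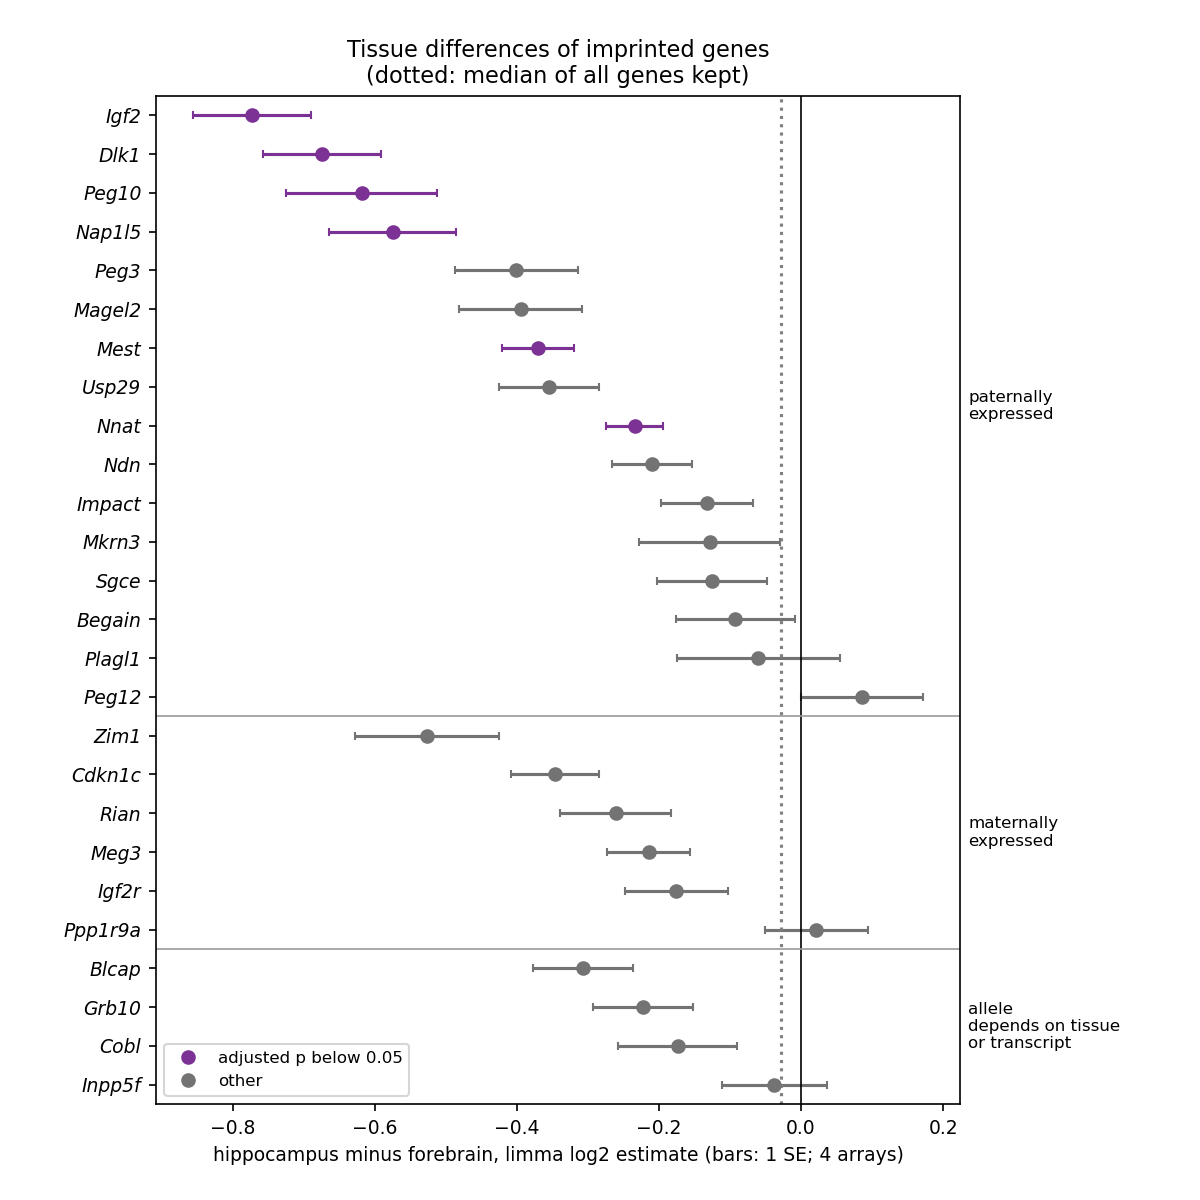
Estimate of hippocampus minus forebrain on the log2 scale from limma over 4 arrays (x axis, bars show 1 SE) for the 26 imprinted genes, grouped by parental class. Purple points mark the 6 genes with an adjusted p below 0.05, from Igf2 at -0.77 to Nnat at -0.23, and the dotted line is the median of all genes kept at -0.03.

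Markers of other cell types and brain regions moved with this comparison. Of all genes, 61.2% had a limma estimate below 0, 1.02% were called lower and 0.109% were called higher. At an unadjusted limma p of 0.05, 11.9% of all genes were lower and 3.27% higher. Meningeal fibroblast markers were lower in hippocampus for 11 of 11 kept genes after PBS and 11 of 11 after ethanol, 7 of them called by limma, with a median estimate of -0.91. Their mean level over the 13 genes with a probe set was 8.24 and 8.12 in forebrain and 7.24 and 7.51 in hippocampus, after PBS and ethanol. Hypothalamic and thalamic markers had a median estimate of -0.15 over 9 kept genes, 1 of them (Hap1) called lower, and mean levels of 7.52 and 7.65 in forebrain and 7.13 and 7.50 in hippocampus. Endothelial markers were lower too, with a median of -0.23 over 9 genes and 0 called by limma (6 lower and 0 higher at an unadjusted p of 0.05), and so were microglia and macrophage markers, with a median of -0.24 over 5 genes and 2 called. Choroid plexus markers went the other way, with a median of 0.26 over 6 genes and Ttr, the transthyretin gene, called higher, and so did striatal projection neuron markers, with a median of 0.29 over 12 genes, 2 called higher and 7 higher at an unadjusted p of 0.05. No marker of these lists is at 0 on the log2 scale. The part of these cells in the differences of the imprinted genes was not tested.

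The next comparison asked how imprinted genes differ after maternal ethanol in hippocampus, the tissue the study is about. Imprinted genes lay mostly on the higher side: 8 of 26 read at least 1.2-fold higher in the ethanol array (Nap1l5, Peg10, Zim1, Peg3, Ndn, Meg3, Magel2 and Cobl) and 1 read at least 1.2-fold lower (Plagl1). Among all genes kept 4.49% were higher and 11.2% lower by this fold. Above 0 were 17 of the 26 and 30.7% of all genes, and the median difference was 0.16 for the members and -0.08 for all genes. Over all 33 imprinted genes with a probe set, 9 were higher, 1 was lower and the median was 0.13. With arrays centred on their medians the counts were 13 higher and 0 lower (8.94% of all genes higher), and after quantile normalization 11 and 0 (6.74%). These are differences between 2 arrays, and they carry no test.

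Nap1l5 differed by 0.64 in hippocampus, the only member past 1.5-fold, a size reached by 0.49% of all genes upward and 0.427% downward. Peg10 differed by 0.57, Zim1 by 0.47 (7.73 after PBS and 8.20 after ethanol) and Peg3 by 0.40 (8.96 and 9.37). For each of these the hippocampus ethanol array lay between the hippocampus PBS array and the forebrain arrays. Ndn, which encodes necdin, a MAGE protein of postmitotic neurons, read 11.57 after PBS and 11.88 after ethanol, a difference of 0.31. Forebrain values for Ndn were 11.89 and 11.98, so the hippocampus PBS array is the one that stands apart. Meg3, a long non-coding RNA, showed the same arrangement, at 11.88 after PBS and 12.19 after ethanol in hippocampus against 12.22 and 12.27 in forebrain.

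Magel2 read 7.22 after PBS and 7.49 after ethanol, a difference of 0.28. Cobl, an actin nucleator gene next to Grb10, read 7.93 and 8.20 and lay just inside the 1.2-fold limit at 0.26, and Dlk1 lay just outside it, also at 0.26. Rian, a long non-coding RNA that hosts small nucleolar RNAs, differed by 0.23, Igf2 by 0.21, Usp29 by 0.21 and Mest by 0.18. Inpp5f differed by 0.13 and Impact, a regulator of translation under stress, by 0.02. Plagl1 read 9.19 after PBS and 8.86 after ethanol, a difference of -0.33 (-0.23 with centred arrays and -0.25 after quantile normalization, both short of 1.2-fold). In this gene the hippocampus PBS array was the highest of the 4. Igf2r, the receptor that clears IGF2, differed by -0.14 (-0.04 with centred arrays) and Cdkn1c by -0.12 (-0.02), beside the median of all genes at -0.08. Grb10, an adaptor that dampens insulin and IGF receptor signalling, differed by -0.03 and lay above 0 with centred arrays (0.07) and after quantile normalization (0.06).

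**Figure D3:**
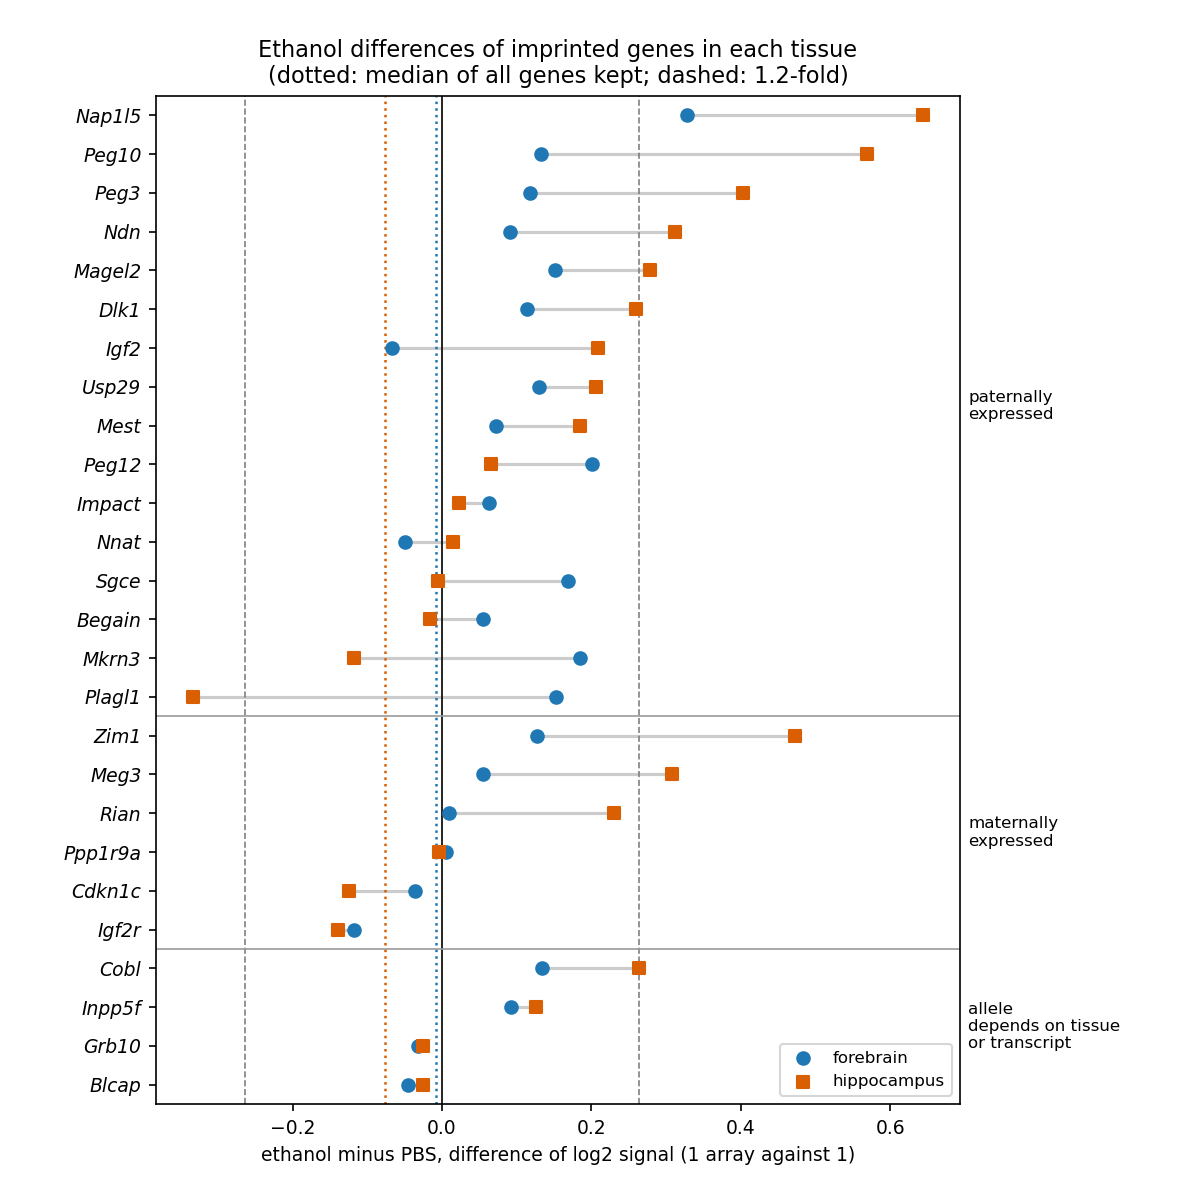
Ethanol minus PBS difference of log2 signal (x axis) of the 26 imprinted genes in forebrain (circles) and hippocampus (squares), 1 array against 1 in each tissue, grouped by parental class. Dashed lines mark 1.2-fold and dotted lines the medians of all genes kept, -0.01 in forebrain and -0.08 in hippocampus, and Nap1l5 is the one gene past 1.2-fold in both tissues.

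In forebrain the ethanol differences were smaller and again mostly above 0. Nap1l5 read 9.56 after PBS and 9.89 after ethanol, a difference of 0.33, and it was the 1 member past 1.2-fold, where 0.699% of all genes were higher and 0.508% lower by that fold. At 1.5-fold 0 members were higher, against 0.0454% of all genes. Among the 26 genes 20 lay above 0, against 46.1% of all genes, and the median was 0.09 against -0.01. Peg12 differed by 0.20, Mkrn3, a ring finger protein gene known from control of puberty, by 0.18, Sgce, the epsilon-sarcoglycan gene, by 0.17, and Plagl1 by 0.15. Peg10, Zim1, Usp29, Peg3 and Dlk1 lay between 0.11 and 0.13. Below 0 were Igf2r at -0.12, Igf2 at -0.07, Nnat at -0.05, Blcap at -0.05, Cdkn1c at -0.04 and Grb10 at -0.03. Of the 26, 15 were above 0 in both tissues, a share that was 19.1% among all genes. The tissues use different arrays but may share litters.

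A test of ethanol over both tissues called 0 imprinted genes and 0 genes of any kind at a Benjamini-Hochberg adjusted p of 0.05 in limma. Nap1l5 came nearest, with an estimate of 0.49 (SE 0.0894, limma adjusted p = 0.441), and ranked as number 25 from the top of 11013 genes by estimate. At an unadjusted p of 0.05 limma gave 10 of 26 imprinted genes higher (Nap1l5, Peg10, Zim1, Peg3, Magel2, Ndn, Cobl, Meg3, Usp29 and Mest) and 0 lower, against 3.41% and 6.36% of all genes. Estimates for these 10 ran from 0.13 for Mest to 0.49, with positive differences in both tissues. No imprinted gene was called for ethanol after centring, quantile normalization, other filters, averaging of probe sets, without the trend or without tissue as a term, although quantile normalization called 12 other genes higher and 2 lower. Leaving out 1 array, with treatment as the only term, gave member medians from -0.01 to 0.22, and treatment is then partly mixed with tissue.

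The order of the 4 arrays was described after the values had been seen. The hippocampus PBS array was the lowest of 4 for 16 of the 26 genes, against 19.9% of all genes, and the forebrain ethanol array was the highest for 17, against 25.3%. For 12 genes (Dlk1, Meg3, Rian, Peg3, Zim1, Usp29, Peg10, Mest, Ndn, Magel2, Impact and Nap1l5) the arrays fell in 1 order, from forebrain ethanol through forebrain PBS and hippocampus ethanol down to hippocampus PBS, as did 7.57% of all genes. The ethanol difference in hippocampus and the tissue difference after PBS both use the hippocampus PBS array. A low reading of that single array for a gene therefore enters both.

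Several marker lists moved with the ethanol differences as well. Beside them, 69.3% of all genes were lower and 30.7% higher in hippocampus after ethanol, and 53.8% and 46.1% in forebrain. In hippocampus, meningeal markers were higher after ethanol for 9 of 11 genes (median 0.36), hypothalamic and thalamic markers for 9 of 9 (median 0.31), striatal projection neuron markers for 12 of 12 (median 0.36) and astrocyte markers for 7 of 8 (median 0.28), whereas 6 of 6 choroid plexus markers (median -0.34) and 8 of 9 dorsal forebrain markers (median -0.36) were lower. In forebrain, hypothalamic and thalamic markers were higher for 8 of 9 (median 0.08) and astrocyte markers for 6 of 8 (median 0.11), while meningeal markers were lower for 10 of 11 (median -0.12) and striatal markers for 8 of 12 (median -0.04). Mean striatal levels were 8.70 and 8.64 in forebrain and 8.80 and 9.19 in hippocampus, and mean astrocyte levels 8.89 and 8.97 in forebrain and 8.66 and 8.90 in hippocampus. Mean choroid plexus levels were 7.53 and 7.54 in forebrain and 7.96 and 7.64 in hippocampus. The part of these cells in the ethanol differences was not tested.

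Paternally and maternally expressed genes were then set side by side. The 16 paternally expressed genes had a median ethanol difference of 0.20 in hippocampus and 0.12 in forebrain, and the 6 maternally expressed genes 0.11 and 0.01. By the 1.2-fold rule in hippocampus, 5 paternally expressed genes were higher and 1 lower, and 2 maternally expressed genes (Meg3 and Zim1) were higher and 0 lower. Medians of the tissue estimate were -0.29 and -0.24, and of the 4 genes with a tissue- or transcript-dependent copy -0.20. The maternal class divided within itself: Zim1, Meg3 and Rian lay between 0.23 and 0.47 in hippocampus after ethanol, and Ppp1r9a, Cdkn1c and Igf2r below 0. Of these, Igf2r and Ppp1r9a are known as weakly or not imprinted in brain, as is Begain among the paternally expressed genes. Without these 3 genes, a choice made after seeing the data, the hippocampus medians were 0.21 for 15 paternally and 0.27 for 4 maternally expressed genes, so the difference between the classes changed sign, from 0.08 to -0.06. It was 0.21 under the stricter expression filter, which drops Zim1 among others, 0.04 after quantile normalization and 0.05 without a filter. For tissue the difference was -0.06, and 0.005 without a filter. Members of a class are not replicates of a condition, and no test was made over them.

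By cluster, genes read from opposite parental copies often lay on the same side. In the Peg3 cluster, paternally expressed Peg3 and Usp29 and maternally expressed Zim1 differed by 0.40, 0.21 and 0.47 in hippocampus after ethanol (median 0.40) and by 0.12, 0.13 and 0.13 in forebrain. In the Dlk1-Dio3 cluster, paternally expressed Dlk1 and maternally expressed Meg3 and Rian differed by 0.26, 0.31 and 0.23 in hippocampus, and Begain at the cluster's edge by -0.02 (median 0.25). In the cluster linked to Prader-Willi and Angelman syndromes, 4 paternally expressed genes were kept, with Ndn at 0.31, Magel2 at 0.28, Peg12 at 0.06 and Mkrn3 at -0.12 (median 0.17). The Peg10-Sgce cluster was uneven: Peg10 differed by 0.57, but Sgce, which shares its promoter region, by -0.01 and Ppp1r9a by -0.0042, while in forebrain Sgce differed by 0.17 and Peg10 by 0.13.

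Nested genes separated from their hosts in 1 of the 2 measured cases. Nap1l5 lies inside Herc3, a ubiquitin ligase gene that is not on the imprinted list. Herc3 read 9.23 and 9.30 in forebrain and 9.32 and 9.04 in hippocampus, a hippocampus difference of -0.28 where that of Nap1l5 was 0.64, and a forebrain difference of 0.07 where that of Nap1l5 was 0.33. Nnat lies inside Blcap, a gene of maternal bias in brain, and both were nearly level after ethanol, at 0.01 and -0.03 in hippocampus and -0.05 and -0.05 in forebrain. They were both lower in hippocampus, Blcap with an estimate of -0.31 (limma adjusted p = 0.106).

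The 7 imprinted genes below the expression filter had means under 7.11 and stayed out of the counts and tests above. Asb4, an ankyrin repeat gene prominent in hypothalamus, read 7.34 and 7.42 in forebrain and 6.32 and 6.45 in hippocampus, a tissue difference of -1.03 after PBS and -0.97 after ethanol, and limma without the filter called it lower. Ddc, the dopa decarboxylase gene, read 6.32 and 6.46 in forebrain and 5.91 and 6.30 in hippocampus, a hippocampus ethanol difference of 0.38. The retrotransposon-derived Rtl1 differed by 0.20 in hippocampus and 0.06 in forebrain, and the placental growth inhibitor Phlda2 by 0.22 and -0.09. The transporter gene Slc22a18 differed by -0.02 and 0.12, the non-coding RNA Airn by 0.02 and 0.18 and the thyroid hormone deiodinase gene Dio3 by 0.04 and -0.10.

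Other genes of imprinted loci, and factors linked to the keeping of imprints, were read as lists. Of 32 kept neighbours and further imprinted genes, 14 were higher and 18 lower in hippocampus after ethanol (median -0.02), where 69.3% of all genes were lower. By the 1.2-fold rule 8 of the 32 were higher and 3 lower there, against 4.49% and 11.2% of all genes. For ethanol limma called 0 of the 32, with 5 higher and 1 lower at an unadjusted p of 0.05, against 3.41% and 6.36% of all genes. The largest hippocampus differences were those of the GABA receptor gene Gabrg3 at 0.55, the paternally expressed Zdbf2 at 0.45, the guanine nucleotide exchange factor gene Rasgrf1 at 0.41 and the transcription factor gene Klf14 at 0.40. Zdbf2 read 9.02 and 9.14 in forebrain and 8.48 and 8.93 in hippocampus, the order of arrays described above for 12 members. Between the tissues, 8 of the 32 were lower by 1.2-fold in hippocampus after PBS and 0 higher, against 6.46% and 3.16% of all genes. After ethanol 4 were lower and 2 higher, against 9.85% and 2.15%. Kcnk9, a maternally expressed potassium channel gene, was the 1 neighbour called lower in hippocampus (limma estimate -0.58, adjusted p = 0.0417).

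The imprint maintenance list also held wider DNA methylation and chromatin genes, among them enzymes that set or remove methylation. Of its 27 kept genes, 24 were lower after ethanol in hippocampus, where 69.3% of all genes were, and their median of -0.10 was close to the -0.08 of all genes. For ethanol limma called 0 of them, with 5 lower and 0 higher at an unadjusted p of 0.05, against 6.36% and 3.41% of all genes. Uhrf1, which brings DNMT1 to newly copied DNA, differed by -0.54 in hippocampus and -0.22 in forebrain, and Eed, a Polycomb subunit gene, by -0.43 and 0.05. Zfp57 itself read 11.44 and 11.42 in forebrain and 11.50 and 11.41 in hippocampus, and Trim28 differed by -0.15 and -0.09.

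MicroRNA genes of the Dlk1-Dio3 locus, whose probe sets read precursor RNA and not the mature microRNA, had 21 kept members with a median of 0.03 in hippocampus after ethanol. Mir667 at 0.43 and Mir341 at 0.37 differed most. For ethanol limma called 0, with 2 higher and 1 lower at an unadjusted p of 0.05, against 3.41% and 6.36% of all genes. Between the tissues 16 of the 21 lay below 0 after ethanol (median -0.09, all genes -0.06) and 17 after PBS (-0.16, all genes 0.01). The median limma estimate was -0.14, against -0.03 over all genes, and 0 were called. At an unadjusted p of 0.05 limma gave 5 lower and 0 higher, against 11.9% and 3.27% of all genes. In the IGF pathway beyond the imprinted genes, 9 of 14 kept genes were lower after ethanol in hippocampus (median -0.10), where 69.3% of all genes were, and 12 of 14 in forebrain, where 53.8% were. In hippocampus Igf1 differed by 1.08, from a PBS reading of 6.65 that is under the filter level, and by -0.15 in forebrain. The binding protein gene Igfbp5 differed by 0.57 in hippocampus and -0.07 in forebrain. Igf2bp1, whose product binds Igf2 messenger RNA, differed by -0.55 and -0.59, and its relative Igf2bp3 by -0.46 and -0.02. None of these was called by limma for ethanol, and 3 of the 14 were lower and 0 higher at an unadjusted p of 0.05, against 6.36% and 3.41% of all genes.

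**Figure D4:**
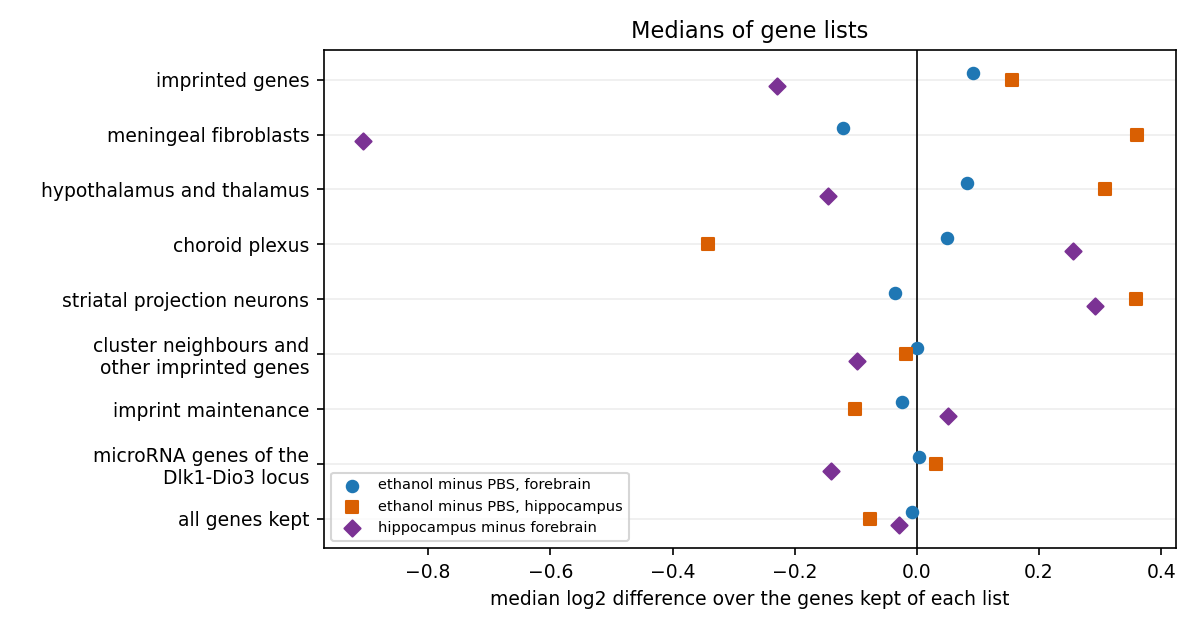
Median log2 difference (x axis) over the kept genes of each list, for ethanol minus PBS in forebrain (circles), ethanol minus PBS in hippocampus (squares) and hippocampus minus forebrain by limma (diamonds). The imprinted genes have medians of 0.09, 0.16 and -0.23, and all genes kept -0.01, -0.08 and -0.03.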

How the data were processed

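RNA from 4 fetal brain samples was hybridised to 4 Affymetrix arrays (biotin-labelled cRNA from 6 ug total RNA, per the labels' protocols). The values are the authors' deposited log2 signals. The scale is not in the labels and was read from the values, 1.58 to 13.96. The submitters' processing notes name MAS5. How the signals were summarized or normalized is not given in the sources used here. Scaling by the authors was kept. Probe sets were named through the platform annotation, using only the 21789 of 35557 with 1 symbol, and the probe set with the highest mean stood for a gene (every imprinted gene had 1). Groups follow the sample titles.

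Within a tissue, differences of 2 arrays were counted at 1.2-fold, a limit chosen with earlier results known. Over 4 arrays a model with tissue and treatment terms was fitted in limma 3.58.1 (R 4.3.3). It used a trended variance prior and p-values adjusted by Benjamini-Hochberg over 11013 genes, with 0.05 as threshold, and was tested on simulated data. The number of arrays limits the precision. Every imprinted gene could be named, and up to 4 genes of each other list, by size of difference, while Herc3, Zfp57, Trim28 and Kcnk9 were named as host, imprint keepers and only call. The members, classes and lists were chosen with earlier results of these data known. Python 3.11.15 (pandas 2.3.3, matplotlib 3.10.9) did the rest.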

Additional observations from a re-analysis of the deposited data

Results flagged for a closer look

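For 7 of the 26 kept imprinted genes the ethanol difference had opposite signs in the tissues, with 1 array against 1 in each, so the contrast between tissues was not tested. Opposite signs were common among all genes, of which 30.7% were above 0 in hippocampus, 46.1% in forebrain and 19.1% in both. As hippocampus minus forebrain effect, Plagl1 stood at -0.49 (from -0.33 and 0.15) and Mkrn3 at -0.30 (from -0.12 and 0.18). Igf2 had 0.27 (from 0.21 and -0.07) and Sgce -0.17 (from -0.01 and 0.17). Begain at -0.070, Nnat at 0.064 and Ppp1r9a at -0.0091 rest on differences that lie close to 0 in both tissues. The limma model takes this same contrast as each gene's own residual, with 1 degree of freedom. It combines that residual with a variance prior from all genes kept, which carries 6.53 degrees of freedom. The median limma standard error of a difference was 0.0808.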

How the results depend on the processing

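With 1 array per group, the number of arrays limits every value. Of 6 genes called lower in hippocampus, centring left 2, no intensity trend 2 and no filter 2 (3 members with Asb4). No treatment term left 0, while quantile normalization called 13. Over all genes 112 were called lower, 45 after centring, 25 with no trend and 33 with no filter. Without the treatment term 0 were, and after quantile normalization 346. Leaving out 1 array, chosen after seeing the data, gave 1 to 17 calls. For ethanol it gave 0 to 1, and no other setting called a member. The fits without 1 array have 1 array left in a tissue and in a treatment, so nothing is concluded from their counts. For tissue, they called more genes of all kinds than the 4 arrays did without either hippocampus array. Without either forebrain array they called fewer. For ethanol, the fit with 1 member called also called other genes. Over all genes and 4 arrays, ethanol calls were 0 higher and 0 lower, 1 and 1 after centring, 12 and 2 after quantile normalization and 5 and 2 under the 75th percentile filter. In hippocampus after ethanol, centring gave 13 members higher and 0 lower (median 0.25), quantile normalization 0 lower, and the 75th percentile filter 5 higher. Of all genes, 8.94% were higher and 447 of 11013 lower after centring, 630 lower after quantile normalization, and 2.9% higher under the stricter filter. At 1.5-fold 1 member was higher and 0 lower, at 2-fold 0 and 0, and in forebrain 0 members were higher at either fold. The stricter filter moved the paternal minus maternal medians to 0.21 for ethanol in hippocampus and -0.14 for tissue. Without Igf2r, Ppp1r9a and Begain, left out after seeing the data, the hippocampus value reversed to -0.063. Cluster medians in hippocampus after centring were 0.34 for Dlk1-Dio3, 0.22 for Grb10, 0.093 for Nnat-Blcap, 0.095 for Peg10-Sgce, 0.50 for Peg3 and 0.27 for Prader-Willi genes. Peg10-Sgce was 0.086 after quantile normalization. Under the stricter filter, Peg3 was 0.30, the Prader-Willi genes 0.31 and Grb10 -0.025, since fewer genes were left, and without a filter Grb10 was 0.26. No paired analysis was possible because the labels carry no replicate numbers and each group has 1 array.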
